A study of Mus musculus with 6 samples.

Results

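The genes described here are 10 imprinted growth regulators of the mouse, chosen by name and matched to the gene symbols in the files. All 10 were found among the 18182 genes of the series. They are Igf2, Dlk1, Igf2r, Grb10, Cdkn1c, Plagl1, Peg3, Peg10, Mest and Nnat. The libraries came from LLC-RFP cells, a Lewis lung carcinoma line of the mouse that carries red fluorescent protein, injected under the skin of wild type C57BL/6 mice either alone (LLC alone, 3 libraries) or together with bone marrow-derived mesenchymal stem cells (LLC with BMSCs, 3 libraries). Both groups were collected from the primary cancer sites by sorting for red fluorescence, and RNA was sequenced. The comparison asks how gene expression of the cancer cells differed after growth beside BMSCs. The tumour cells are 1 line, and the sources do not say whether each library came from 1 animal, so that p-values measure the spread between these libraries, which may be partly technical.

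Imprinted genes are expressed mainly or only from either the maternal or the paternal allele, a difference usually tied to methylation set in the germ line. Many of them act on growth of the fetus and placenta: paternally expressed genes such as Igf2 tend to promote growth and maternally expressed genes such as Igf2r, Grb10 and Cdkn1c tend to restrain it. Most are turned down after birth, and several are switched on again or lose their imprint in tumours. The line and the hosts share the C57BL/6 background and the files hold no allele-specific reads, so each value below is the sum of both alleles and the imprint itself could not be checked.

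Depth was 33476347 to 46189113 estimated counts on genes per library, and LLC alone replicate 3 stood apart from the others. Relative to the mean of the 6 libraries, its median deviation in log2 CPM, where CPM scales counts to the library total, was 0.31 over the 2671 shortest of the tested genes and -0.37 over the 2671 longest. The other 2 LLC alone libraries had 0.04 and 0.06 over the shortest and -0.02 and -0.0033 over the longest. The libraries with BMSCs had -0.19, -0.09 and -0.11 over the shortest and 0.18, 0.10 and 0.13 over the longest, so a trend over length also ran between the groups. Values without LLC alone replicate 3 and with each library's trend removed are given for the long members, for Notch2, and for those named genes of the pathway and imprinted lists whose call they changed. Among markers of the sorted cells, Vim fell from 887 ± 45.6 to 792 ± 33.8 FPKM (adjusted p = 0.038, edgeR), where FPKM scales fragments by transcript length and library total. Krt8 rose from 95.3 ± 5.98 to 110.0 ± 2.85 FPKM (adjusted p = 0.037) and Krt18 from 0.0833 ± 0.0503 to 0.653 ± 0.0322 FPKM (adjusted p = 0.00022), while the epithelial markers Epcam and Cdh1 did not exceed 0.04. Krt18 was nearly absent in LLC alone, and its adjusted p is not read as support. The BMSC markers were higher with BMSCs in 13 of 13 tested, against 31.5% of all tested genes. Their summed level was 501 to 581 CPM in LLC alone and 1061 to 1105 CPM in LLC with BMSCs, with Col3a1 the largest term in each library. Of the 16 BMSC markers, Cxcl12, Thy1 and Fbln1 were at 0 in all LLC alone libraries. Neutrophil markers summed to 0.472 to 0.792 CPM and 18.3 to 21.1 CPM, and all 6 tested were higher. Macrophage markers summed to 24.0 to 28.9 and 28.7 to 30.8 CPM, with 4 of 6 tested higher (Adgre1, Csf1r, Mrc1 and Lyz2), Cd68 lower and Cd14 not passing. Adgre1 had no counts in LLC alone and 60, 79 and 63 in LLC with BMSCs. Lymphocyte markers summed to 0.392 to 0.548 and 2.51 to 2.74 CPM, and the 1 tested, the pan-leukocyte gene Ptprc, was higher, with 3, 8 and 8 counts in LLC alone and 96, 112 and 103 with BMSCs. Most tested neutrophil markers, Adgre1, Ptprc and the BMSC marker Dcn passed the filter on low counts before the test through the libraries with BMSCs only. Their calls as higher are therefore not read as support. The part of these other cells in the differences below was not tested, and in sorted bulk RNA fewer cells of a type and less RNA per cell cannot be told apart.

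The 10 members spanned several orders of magnitude in FPKM. Igf2r was the most abundant in both groups, at 14.2 ± 3.88 FPKM (SD, n = 3) in LLC alone and 16.6 ± 0.847 in LLC with BMSCs, followed by Peg10 at 11.3 ± 1.70 and 10.5 ± 0.370. Peg3 and Mest came next in LLC alone, at 3.74 ± 1.10 and 3.48 ± 0.414 FPKM, and their ranges overlapped. In LLC with BMSCs these were followed by Peg3 at 5.69 ± 0.248, Nnat at 1.35 ± 0.0520 and Mest at 1.35 ± 0.397 FPKM, and the ranges of Nnat and Mest overlapped. The other 5 members stayed below 0.3 FPKM in each library. By the edgeR quasi-likelihood test with Benjamini-Hochberg adjustment over 13353 genes and a threshold of 0.05, 4 members were higher with BMSCs (Dlk1, Nnat, Grb10 and Peg3) and 2 were lower (Igf2 and Mest). Igf2r and Peg10 did not pass, and Cdkn1c and Plagl1 were too low to be tested. Among all tested genes, 31.5% were higher and 31.3% lower, 62.9% in either direction, so the members' count of 6 in 8 tested is near the background and is not read as a property of the group. FPKM of the groups did not overlap for 6 of the 8 tested members, against 70.6% of all tested genes. Igf2, Dlk1 and Grb10 passed the filter on low counts through 1 group alone and therefore had to differ. Nnat was over the filter's cut in 2 of 3 LLC alone libraries and in all 3 with BMSCs, so it also passed through 1 group.

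**Figure D1:**
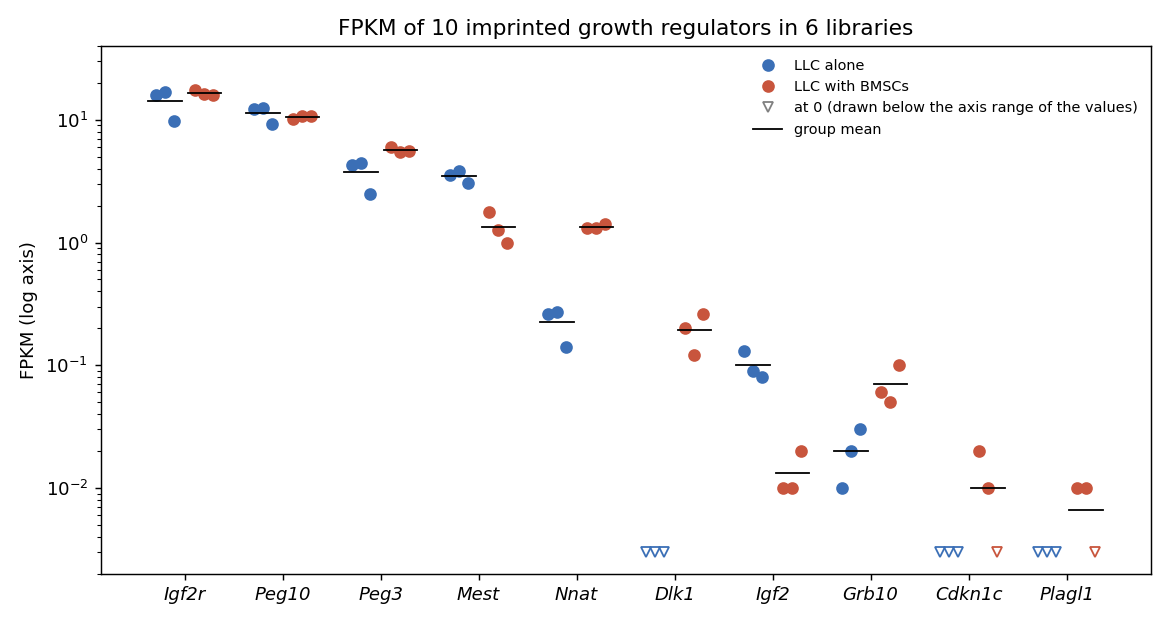
FPKM of each member in each of the 6 libraries on a log axis, with LLC alone in blue, LLC with BMSCs in red and a bar at each group mean, and open triangles for libraries at 0. Igf2r, Peg10, Peg3 and Mest stood at or above 1 FPKM in all 6 libraries, and Dlk1 was at 0 in the 3 LLC alone libraries.

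Igf2, the insulin-like growth factor that drives fetal growth, was nearly silent in these cells and fell further with BMSCs. The gene lies at chr7:142650766-142666816 on the minus strand (GRCm38, GENCODE M21; the files hold no coordinates). It had 20, 11 and 13 counts in LLC alone replicates 1 to 3 and 2, 1 and 3 counts in LLC with BMSCs. The lowest LLC alone library was thus above the highest library with BMSCs. Counts summed over the groups and scaled by library size were 7.83-fold lower with BMSCs. The 95% counting interval was 3.33 to 22.5, which covers counting error only. Igf2 passed the low-count filter through LLC alone only, so its adjusted p of 0.00065 (edgeR) is not read as support. In FPKM the level was 0.10 ± 0.0265 and 0.0133 ± 0.00577. Exons of Igf2os, on the opposite strand, and of Gm49394, on the same strand, overlap those of Igf2. The sources do not say whether strand was used in counting, and strand could not separate Igf2 from Gm49394.

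Dlk1, a membrane protein of the Notch ligand family that holds back adipocyte and other differentiation and marks stromal progenitors, was counted only in the libraries with BMSCs. Its position is chr12:109452823-109463336 on the plus strand. No fragment was counted in any LLC alone library, and 38, 23 and 49 were counted in LLC with BMSCs replicates 1 to 3. Against a floor of 3 counts per library, the level was at least 11.2-fold higher with BMSCs. Dlk1 passed the low-count filter through the libraries with BMSCs only, so its adjusted p of 0.00058 (edgeR) is not read as support. It reached 0.12 to 0.26 FPKM in the libraries with BMSCs. The 3 BMSC markers at 0 in LLC alone had mean levels of 0.137 ± 0.0351 (Fbln1), 0.09 ± 0.0173 (Cxcl12) and 0.0133 ± 0.0153 FPKM (Thy1) there. Nearly all Dlk1 counts were assigned to transcript NM_010052.

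Of 10 relatives of Dlk1 and Plagl1 tested (Notch receptors, ligands, targets and the related PLAG factors), 5 were higher, 2 lower and 3 did not pass, and the median log2 fold change was 0.21 in this list and 0.01 over all tested genes. Over all tested genes, 31.5% were higher and 31.3% lower. The close homologue Dlk2 went the other way from Dlk1. It stood at 1.79, 1.93 and 2.03 FPKM in LLC alone and at 0.43, 0.35 and 0.39 in LLC with BMSCs, a log2 fold change of -2.30 (SE 0.15, adjusted p = 1.2e-05). The receptor Notch2 rose from 23.5 ± 6.29 to 37.7 ± 4.05 FPKM (log2 fold change 0.66, SE 0.19, adjusted p = 0.017). It is 10506 bases long, with 26.95, 27.3 and 16.2 FPKM in LLC alone replicates 1 to 3, and the log2 fold change was 0.46 without replicate 3 and 0.32 with the length trend removed, both past the threshold.

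Igf2r, the cation-independent mannose 6-phosphate receptor, takes Igf2 to the lysosome and carries lysosomal enzymes there. It was the best expressed member and did not pass the test. It lies at chr17:12682406-12769664 on the minus strand, and its 1 counted transcript has 8948 bases. It had 16.1, 16.8 and 9.77 FPKM in LLC alone and 17.6, 16.3 and 16.0 FPKM in LLC with BMSCs, so that the groups overlapped and LLC alone replicate 3 lay below the other 5 libraries. The log2 fold change was 0.20 (approximate 95% interval -0.15 to 0.56, adjusted p = 0.36, edgeR). Its sign rested on that library: the value was 0.00 without it and -0.10 with each library's trend over gene length removed, and neither passed the test.

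The genes whose log2 CPM followed Igf2r most closely over the 6 libraries were Sptan1 (Pearson r 0.9990), Abhd2 (0.9984) and Ranbp2 (0.9981), against a median of 0.0538 over 10594 genes. Sptan1 and Ranbp2 are also long, at 8060 and 9477 bases, while Abhd2 has 2903. The points share the low LLC alone replicate 3, and these values are a description without a test.

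In the mannose 6-phosphate pathway, 2 of 14 tested genes were higher, 8 lower and 4 did not pass (median log2 fold change -0.19). The shares over all tested genes were 31.5% higher and 31.3% lower, and the list was not tested as a set. M6pr, the cation-dependent receptor that shares enzyme sorting with Igf2r, rose from 52.9 ± 2.39 to 78.6 ± 0.882 FPKM (log2 fold change 0.55, SE 0.06, adjusted p = 0.00014). Gnptab, which makes the mannose 6-phosphate tag, rose from 17.2 ± 2.29 to 25.5 ± 1.07 FPKM (log2 fold change 0.55, adjusted p = 0.0018). Among the cargo and adaptors, the lysosomal protease Ctsd fell from 166.0 ± 8.26 to 91.9 ± 3.83 FPKM and the sorting adaptor Gga2 from 10.3 ± 0.371 to 5.47 ± 0.101. Their log2 fold changes were -0.87 and -0.94 (adjusted p = 2.1e-05 and 5.8e-06).

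Grb10, an adaptor that binds the insulin and IGF1 receptors and restrains their signal, is expressed from the maternal allele in most tissues and from the paternal allele in neurons, and these use different promoters. The gene lies at chr11:11930508-12038683 on the minus strand. The 2 transcripts that received counts start at separate sites, whose 250 upstream bases (RefSeq, GRCm38.p6, minus strand) are shown because the counts were divided between them differently in the groups.
Grb10 upstream of NM_010345, chr11:12037421-12037670: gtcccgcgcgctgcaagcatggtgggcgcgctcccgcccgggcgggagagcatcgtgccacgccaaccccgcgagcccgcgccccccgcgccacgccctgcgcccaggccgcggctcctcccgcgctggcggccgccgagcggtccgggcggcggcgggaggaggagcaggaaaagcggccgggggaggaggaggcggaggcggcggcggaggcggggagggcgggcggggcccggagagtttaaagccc
Grb10 upstream of NM_001177629, chr11:12027972-12028221: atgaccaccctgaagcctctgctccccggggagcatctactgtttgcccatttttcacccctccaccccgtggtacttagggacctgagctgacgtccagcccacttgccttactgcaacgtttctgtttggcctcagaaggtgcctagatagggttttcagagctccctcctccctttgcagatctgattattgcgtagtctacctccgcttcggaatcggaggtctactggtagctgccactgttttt
The first holds 40 CG pairs and 81.2% G or C, more CG than 98.7% of 32851 such windows of the genome's genes, and 5 copies of GGGCGG or its reverse complement CCGCCC, the letters bound by SP1. The second holds 8 CG pairs, 54% G or C and none of that motif, against a median of 6 CG and 52.4% G or C over all windows. GGGCGG on either strand was found in 32.7% of windows.

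Grb10 had 3, 3 and 7 counts in LLC alone and 13, 11 and 21 in LLC with BMSCs, so that the groups did not overlap at levels of 0.01 to 0.10 FPKM. The rise was 3.24-fold by counts (95% counting interval 1.72 to 6.55). Grb10 passed the low-count filter through the libraries with BMSCs only, so its adjusted p of 0.01 (edgeR) is not read as support. In LLC alone all counts were assigned to NM_001177629, whose start has the CG-poor window. In LLC with BMSCs, 61.3%, 100% and 100% of the counts were assigned to NM_010345, whose start has the CG-rich window. At 3 to 21 counts per library this assignment rests on few fragments, and it was not tested.

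**Figure D2:**
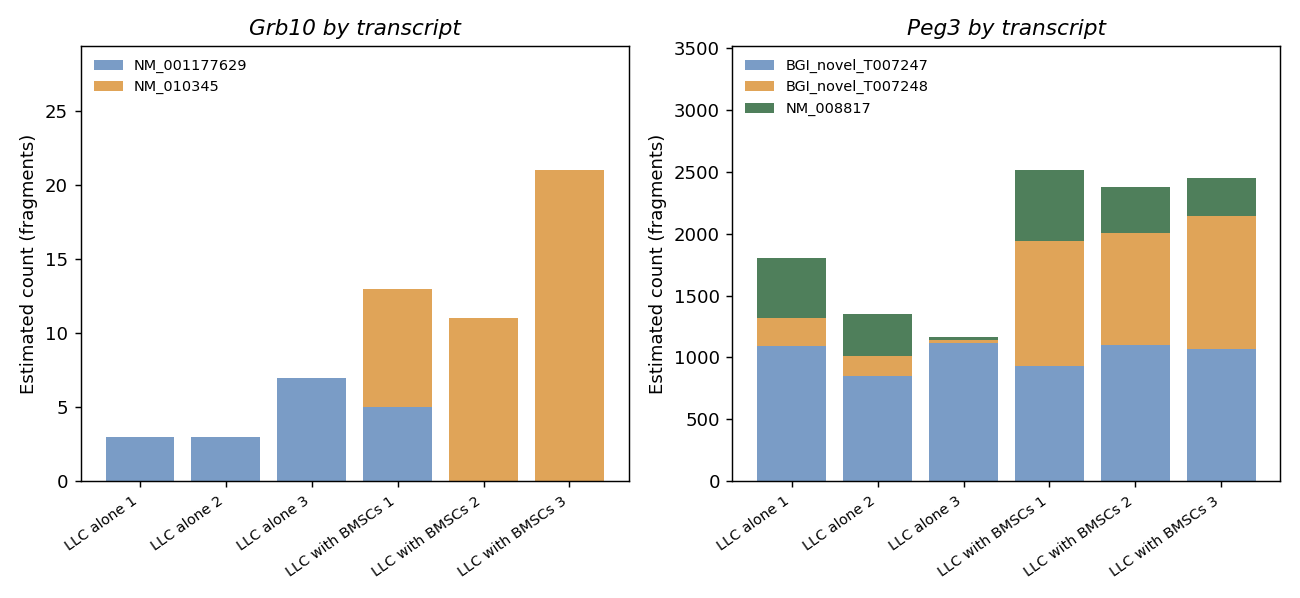
Estimated counts of Grb10 (left) and Peg3 (right) in each library, stacked by the transcript to which the authors' pipeline assigned them. NM_010345 of Grb10 appears in the 3 libraries with BMSCs only, and BGI_novel_T007248 of Peg3 is larger in those libraries than in the LLC alone libraries.

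In IGF and insulin signalling around Grb10 and Igf2, 9 of 20 tested genes were higher, 8 lower and 3 did not pass (median log2 fold change 0.15). Among all tested genes, 31.5% were higher and 31.3% lower, and these counts are not read as a property of the list. The receptor genes Igf1r and Insr rose from 3.54 ± 0.331 to 5.12 ± 0.301 FPKM and from 3.54 ± 0.574 to 4.94 ± 0.144 FPKM (log2 fold changes 0.51 and 0.46, adjusted p = 0.0012 and 0.0072). Both are long, at 12150 and 9357 bases, and neither passed with the length trend removed, at 0.09 and 0.13 (adjusted p = 0.46 and 0.091), while both passed without LLC alone replicate 3, at 0.44 and 0.35. The receptor substrates fell: Irs1 had a log2 fold change of -0.72 (SE 0.10, adjusted p = 0.00058) and Irs2 of -1.21 (SE 0.20, adjusted p = 0.0012), from 3.11 ± 0.835 to 1.35 ± 0.127 FPKM. Grb2, the adaptor towards Ras, rose from 28.1 ± 0.623 to 44.5 ± 2.08 FPKM (log2 fold change 0.63, adjusted p = 7e-05). Of the proteins that bind Igf2 mRNA, Igf2bp2 stood at 58.9 ± 3.71 and 60.2 ± 1.83 FPKM and Igf2bp3 at 8.44 ± 0.742 and 9.46 ± 0.396, and neither passed the test. Igf2bp1 fell from 0.43 ± 0.0361 to 0.26 ± 0.01 FPKM (log2 fold change -0.72, adjusted p = 0.001). Igf1 itself was in none of the files used here.

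Cdkn1c, the CDK inhibitor p57, and Plagl1, a zinc finger factor that controls a network of imprinted genes, were at the limit of detection. Cdkn1c (chr7:143458339-143461050, minus strand) had no counts in LLC alone and 2, 1 and 0 in LLC with BMSCs. Plagl1 (chr10:13060504-13131694, plus strand) had none in LLC alone and 3, 2 and 0 with BMSCs. Each count is worth 0.0041 to 0.0156 FPKM for these genes at this depth, and a difference was not detectable.

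Of 13 tested CDK inhibitors and G1 partners, 4 were higher, 5 lower and 4 did not pass (median log2 fold change -0.16). These counts are near the shares over all tested genes, 31.5% higher and 31.3% lower, and are not read as a property of the list. Cdkn1a (p21), a close relative of Cdkn1c, rose from 14.0 ± 0.871 to 36.4 ± 1.66 FPKM (log2 fold change 1.36, SE 0.07, adjusted p = 4e-06). Cdkn1b (p27), the other relative, fell from 20.7 ± 0.932 to 12.8 ± 0.280 FPKM (log2 fold change -0.57, SE 0.06, adjusted p = 0.00013). Cdk4, the kinase that drives G1, fell from 458.5 ± 36.6 to 313.6 ± 9.60 FPKM (log2 fold change -0.57, adjusted p = 0.00032). Cdkn2a and Cdkn2b were at 0 in all LLC alone libraries, and had 39, 31 and 35 counts and 6, 6 and 1 counts in LLC with BMSCs.

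Peg3, a large zinc finger protein that acts on apoptosis and on maternal behaviour, was higher with BMSCs. Its position is chr7:6703892-6730431 on the minus strand. It had 4.32, 4.43 and 2.47 FPKM in LLC alone and 5.97, 5.51 and 5.58 in LLC with BMSCs, and the groups did not overlap. The log2 fold change was 0.65 (SE 0.16, adjusted p = 0.0082, edgeR), a fold of 1.57. LLC alone replicate 3 was again the lowest, and the log2 fold change was 0.47 without it and 0.32 with the length trend removed, both still past the threshold.

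The rise of Peg3 was not spread evenly over its transcripts. BGI_novel_T007247, one of the models that the authors' pipeline assembled, had 853 to 1120 counts in LLC alone and 935 to 1098 in LLC with BMSCs, which overlap. BGI_novel_T007248, the longest at 11404 bases, had 230, 156 and 22.4 counts in LLC alone and 1004, 909 and 1074 in LLC with BMSCs. Its share of the gene's counts was 1.91% to 12.7% in LLC alone and 38.2% to 43.8% in LLC with BMSCs. The pipeline divides fragments among the transcripts of a gene, and these shares were not tested. Usp29, which shares its promoter region with Peg3, stood at 0.0567 FPKM in both groups and did not pass the test.

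**Figure D3:**
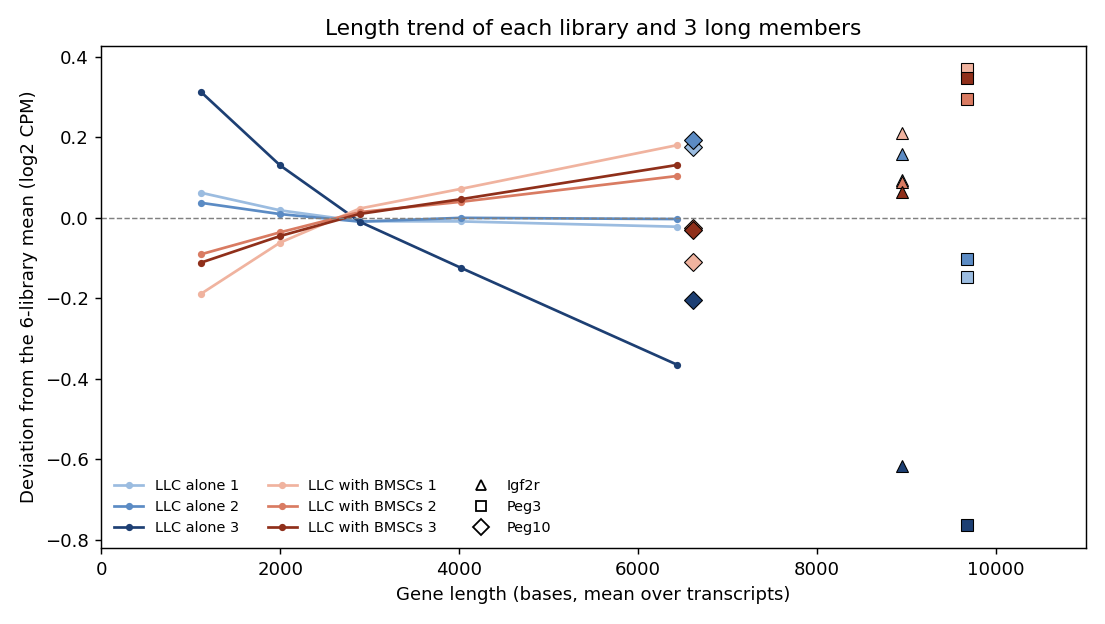
Median deviation of each library from the 6-library mean (log2 CPM) in 5 classes of gene length, as lines, with the deviations of Igf2r, Peg3 and Peg10 as symbols in the colour of their library. The line of LLC alone replicate 3 falls from 0.31 to -0.37, and its symbols are the lowest of each of these 3 long genes.

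Peg10, a gene derived from a retrotransposon and needed for the placenta, was second in level and did not pass the test over all 6 libraries. The gene lies at chr6:4747306-4760517 on the plus strand. It had 12.2, 12.4 and 9.33 FPKM in LLC alone and 10.1, 10.8 and 10.7 in LLC with BMSCs. LLC alone replicates 1 and 2 were above all libraries with BMSCs and replicate 3 was below them. The log2 fold change was -0.12 (approximate 95% interval -0.33 to 0.09, adjusted p = 0.35, edgeR). Without LLC alone replicate 3 it was -0.24 (adjusted p = 0.0022), and with the length trend removed -0.36 (adjusted p = 0.00026), both past the threshold, which made 3 members lower instead of 2. Over all its alternatives the adjusted p ran from 0.00026 to 0.71. Its neighbour Sgce, also paternally expressed, fell from 16.7 ± 1.06 to 10.2 ± 0.636 FPKM (log2 fold change -0.73, adjusted p = 0.00012).

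**Figure D4:**
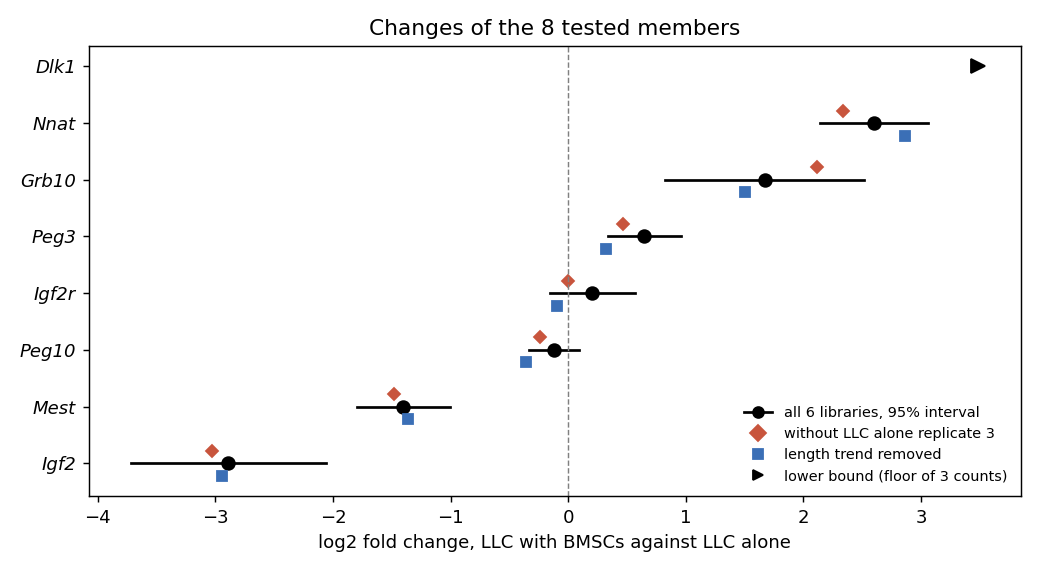
Log2 fold change of LLC with BMSCs against LLC alone for the 8 tested members, with the approximate 95% interval from all 6 libraries (black), the value without LLC alone replicate 3 (red) and the value with the length trend removed (blue). Igf2r and Peg10 lie near 0 and shift with these choices, and the arrow for Dlk1 is the lower bound against 3 counts.

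Mest, an enzyme of the hydrolase family that is high in the embryo and in growing fat, had lower estimated counts with BMSCs. Nnat, a small membrane protein of the endoplasmic reticulum known from developing brain, rose. The 250 upstream bases of both genes (RefSeq, GRCm38.p6, both plus strand) are shown because their estimated changes were the largest in each direction. This ranking covers members with at least 7 counts in each library, and 7 is the lowest count of Nnat. Capitals mark TGCCGC or its reverse complement GCGGCA, the letters bound by the imprint factor ZFP57 when methylated.
Mest upstream of NM_008590, chr6:30737800-30738049: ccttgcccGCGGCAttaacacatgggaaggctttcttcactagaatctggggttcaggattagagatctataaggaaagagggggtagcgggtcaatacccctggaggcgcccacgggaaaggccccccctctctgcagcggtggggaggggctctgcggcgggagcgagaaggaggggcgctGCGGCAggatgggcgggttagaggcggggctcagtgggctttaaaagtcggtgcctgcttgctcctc
Nnat upstream of NM_180960, chr2:157559828-157560077: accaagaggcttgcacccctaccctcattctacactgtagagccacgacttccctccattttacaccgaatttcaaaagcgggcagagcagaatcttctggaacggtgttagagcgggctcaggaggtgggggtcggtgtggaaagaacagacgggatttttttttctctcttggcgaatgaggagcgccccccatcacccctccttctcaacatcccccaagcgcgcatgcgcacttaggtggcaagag
The Mest window holds 2 copies of the motif and 14 CG pairs, and the Nnat window none and 12 CG pairs. TGCCGC on either strand was found in 8.68% of the 32851 windows. Whether the motif is methylated or bound was not measured.

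Mest had 3.55, 3.86 and 3.04 FPKM in LLC alone and 1.78, 1.26 and 1 in LLC with BMSCs. The groups did not overlap, and the log2 fold change was -1.40 (SE 0.20, adjusted p = 0.00062, edgeR), 2.64-fold lower. The gene lies at chr6:30723547-30748465 on the plus strand, and its exons overlap those of Copg2 on the opposite strand. The estimated counts of Mest were not whole, for example 411.32 and 324.2, but their sum with Copg2 was a whole number in each library, so fragments were divided between these genes. The sum fell from 3244 ± 87.1 to 2719 ± 40.6 normalized counts (counts scaled to the mean library), a log2 fold change of -0.26 (adjusted p = 0.0044). The difference of the sum was -525 normalized counts and that of Mest alone -236. Copg2 made up most of the sum and fell by itself from 2866 ± 52.4 to 2576 ± 13.5 normalized counts (log2 fold change -0.15, adjusted p = 0.033, edgeR). The fall of the pair therefore does not show a fall of Mest. Both the direction and the size of the change of Mest depend on that division. Nearly all Mest counts were assigned to NM_008590, except in LLC with BMSCs replicate 2, where 47.8% were assigned to NM_001252293.

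Nnat had 0.26, 0.27 and 0.14 FPKM in LLC alone and 1.32, 1.32 and 1.41 in LLC with BMSCs, from 13, 10 and 7 counts and 65, 64 and 68 counts. The 3 libraries with BMSCs lay within a narrow range far above LLC alone. The log2 fold change was 2.60 (SE 0.23, adjusted p = 5.6e-05, edgeR), or 6.15-fold by counts with a 95% counting interval of 4.17 to 9.35. Only 2 of 3 LLC alone libraries were over the cut of the low-count filter, which was passed through the libraries with BMSCs. The adjusted p is therefore not read as support. Nnat (chr2:157560078-157562522, plus strand) lies within the gene Blcap, which is transcribed across it and was 25.8 ± 1.42 and 29.6 ± 0.905 FPKM (log2 fold change 0.18, adjusted p = 0.042).

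Of the other imprinted genes, the paternally expressed ones had 4 higher, 5 lower and 4 not passing among 13 tested (median log2 fold change -0.05), and the maternally expressed ones 9 higher, 4 lower and 2 not passing among 15 tested (median 0.27). For all tested genes the shares were 31.5% higher and 31.3% lower, and neither list was tested as a set. The paternally expressed Ndn, a growth suppressor of neurons and stroma, rose from 0.203 ± 0.0603 to 1.69 ± 0.270 FPKM (log2 fold change 3.04, SE 0.24, adjusted p = 3e-05). Ndn had 10, 11 and 19 counts in LLC alone and passed the low-count filter through the libraries with BMSCs only. Its adjusted p is therefore not read as support. Snrpn, a splicing protein from the same cluster as Ndn, rose from 6.98 ± 0.802 to 10.8 ± 0.485 (log2 fold change 0.60, adjusted p = 0.00095). Its estimated counts were not whole, but their sum with those of Snurf was a whole number in each library. Fragments were thus divided between Snrpn and Snurf, and the size of the rise depends on that division. Mcts2, an intronless copy of Mcts1 whose reads can be shared with it, fell from 22.3 ± 2.95 to 11.2 ± 1.24 FPKM (log2 fold change -1.02, adjusted p = 0.00025). The estimated counts of Mcts2 were whole numbers in each library. H13, the host gene of Mcts2, fell from 29.9 ± 1.77 to 18.8 ± 1.12 FPKM (log2 fold change -0.69, adjusted p = 0.00014). Among maternally expressed genes with a mean of at least 1 FPKM, the largest rise was that of Dcn, a matrix proteoglycan, from 0.11 ± 0.0173 to 6.31 ± 0.223 FPKM (log2 fold change 5.87, SE 0.14, adjusted p = 1e-07). It had 8 counts in each LLC alone library and passed the low-count filter through the libraries with BMSCs only. This adjusted p is not read as support either. Dcn is imprinted in the placenta and is also in the list of BMSC markers, whose levels are given above. H19 and Meg3, the noncoding partners of Igf2 and Dlk1, were not analysed here.

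The factors that maintain imprints gave these counts: 5 of 18 tested were higher, 1 was lower and 12 did not pass (median log2 fold change 0.08). All tested genes had 31.5% higher and 31.3% lower. The DNA methyltransferase Dnmt1 stood at 62.9 ± 10.1 and 75.7 ± 1.38 FPKM, and its partner Uhrf1 at 75.5 ± 4.39 and 83.1 ± 4.94. Trim28, the corepressor that ZFP57 recruits, stood at 86.2 ± 2.96 and 80.1 ± 0.341, Ctcf at 31.8 ± 1.66 and 31.9 ± 0.424, and Zfp57 itself at 0.61 ± 0.165 and 0.54 ± 0.0872 FPKM. None of these 5 passed the test, with adjusted p from edgeR of 0.073 to 0.83. Without LLC alone replicate 3, Dnmt1 passed with a log2 fold change of 0.13 (adjusted p = 0.026), and with the length trend removed Trim28 and Ctcf passed with -0.16 and -0.09 (adjusted p = 0.0089 and 0.046). Setdb1, the histone methyltransferase of the same complex, rose from 23.1 ± 2.62 to 36.7 ± 1.36 FPKM (log2 fold change 0.70, SE 0.09, adjusted p = 0.00032). The 1 lower gene was Tet1, named here after its values were seen, at 0.02 to 0.03 FPKM in LLC alone and at 0 in the libraries with BMSCs. Tet1 passed the low-count filter through LLC alone only and therefore had to differ. The count of lower factors was 7 with the length trend removed and 3 without LLC alone replicate 3.

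**Figure D5:**
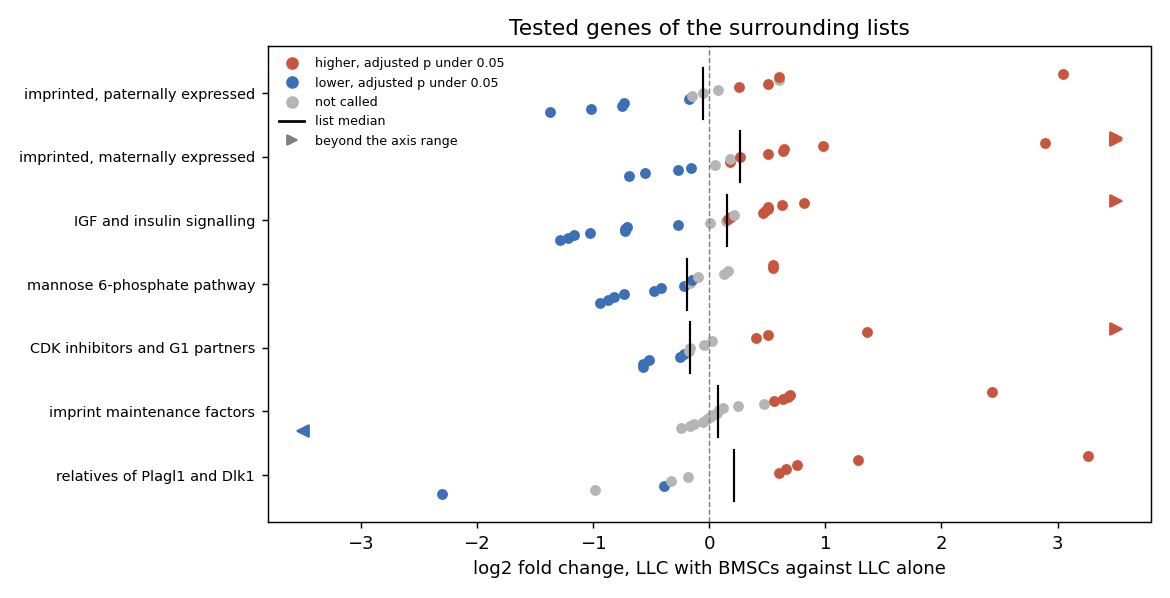
Log2 fold change of each tested gene in the 7 surrounding lists, with genes called higher in red, called lower in blue and others in grey, a black bar at each list's median and arrows for values beyond the axis. Both imprinted lists hold genes on either side of 0, and most imprint maintenance factors lie near 0.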

How the data were processed

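RNA of sorted tumour cells was measured in 6 libraries, 3 per group, grouped by the sample labels. For genes and transcripts, the authors deposited estimated counts, which are not normalized and were not whole for 21.9% to 23.2% of listed genes, and FPKM values scaled by transcript length and library total. Poly(A) RNA was enriched and sequenced by BGI, and the submitters' processing notes name HISAT, StringTie, Cufflinks, GATK and build mm8 without roles. The use of strand is not given in the sources used here.

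The 10 genes and the lists around them were chosen with earlier results of these data known. Counts were rounded. edgeR 4.0.16 in R 4.3.3 (TMM, default filter, quasi-likelihood test over the 6 libraries, Benjamini-Hochberg adjustment, threshold 0.05) was the main test, and 13353 genes were tested. Single values were also compared with an exact permutation test, which cannot go below p = 0.1 with 3 against 3. Genes at 0 in a group were bounded against 3 counts per library, and genes with few counts have a 95% counting interval. Intervals of log2 fold changes are approximate: they apply a normal quantile to an SE taken from the F statistic and can be too narrow. For Dnmt1 such an interval was 0.029 to 0.470, which leaves out 0, while the edgeR p before adjustment was 0.058. The genes named are the 10 members, fixed partners, the largest called rise and fall of each list at a mean of at least 1 FPKM, and the 3 genes most like Igf2r. Ctsd, Sgce, Ndn, Usp29, Blcap, Copg2, Fbln1, Tet1, Cdkn2a, Cdkn2b and single cell markers were picked with their values in view. Alternatives were DESeq2 1.42.0, other scalings and filters, limma 3.58.1 on log2(FPKM + 1) and log2(FPKM + 0.1), a replicate block, removal of the length trend, each library left out, and close pairs summed. Replicates of a group differed by more than sampling noise, with a mean chi-square per gene of 3.03 to 60.4, and did so unevenly. The close pairs were LLC alone replicates 1 and 2, at 4.79, and LLC with BMSCs replicates 2 and 3, at 3.03. Pairs with LLC alone replicate 3 had 60.4 and 58.6, and pairs with LLC with BMSCs replicate 1 had 19.6 and 19.1. Whether the libraries of a close pair are independent is not known. With a 1-unit log2 change simulated in 200 of 13353 genes for this comparison, the edgeR test found 187 of them and made 7 false calls among 194. With a length trend added to 1 library it found 176 with 2 false calls, and with that trend removed 189 with 14 false calls among 203. These simulations used 1 dispersion for all genes and far fewer changed genes than were called here, so they do not give the error rate in these data. Promoter windows are from RefSeq (GRCm38.p6) and gene positions from GENCODE M21 (GRCm38). No window was given for Peg10 and Cdkn1c.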

Additional observations from a re-analysis of the deposited data

How the results depend on the processing

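Of 467 recomputed values, 431 were counted as unchanged. Fold changes had to keep their direction and side of the threshold, and counts to stay within 1.5 times of the value reported. FPKM differences had to move by less than the SD within the groups, which is a loose rule. The Igf2r difference of 2.38 FPKM was 0.15 without LLC alone replicate 3 and was still counted as unchanged. No member lost its call in a fit that tested it, and the changed values follow. For Igf2r the log2 fold change turned to -0.10 with the length trend removed, and without a single library it ranged from -0.00 (without LLC alone replicate 3) to 0.34. For Peg10 it passed the threshold at -0.36 with the length trend removed, and ranged from -0.24 (without LLC alone replicate 3) to -0.053. Members called higher were 1 with at least 10 counts in every library and 2 with either limma fit, and members called lower 1 in each of these, because those filters leave out low members. With limma on either scale, higher relatives of Plagl1 and Dlk1 came to 2, paternally expressed genes that were lower to 3, IGF and insulin genes that were lower to 4 and maintenance factors that were lower to 0. With close pairs summed, lower maternally expressed genes came to 2, lower CDK inhibitors and partners to 3, lower maintenance factors to 2 and lower relatives to 1. Lower maintenance factors were 2 with upper-quartile scaling or no filter, 0 with at least 10 counts in every library and 7 with the length trend removed. Without a single library, lower paternally expressed genes came to 3 to 5, lower maintenance factors to 1 to 3 and lower relatives to 2 to 4.

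Same-numbered libraries of the groups had correlations of deviations of 0.08, -0.11 and 0.06, which gave no sign that the numbers pair the libraries. Deviations from a mean of 3 libraries depend on each other, so these correlations cannot exclude a pairing. With the number as a replicate block, 4161 genes were higher and 4058 lower, against 4210 and 4183, the members gave 4 and 2 as before, and the log2 fold change of Igf2r was 0.24 and of Peg10 -0.11. LLC alone replicates 1 to 3 did not all correlate best with their own number. Depth limits Cdkn1c, Plagl1 and the transcript division of Grb10. With Mest and Copg2 summed, an alternative chosen after seeing the data, the log2 fold change was -0.26.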
